A study of Mus musculus with 6 samples.

Results

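The dentin and bone matrix genes described here were 7 genes in 2 groups: the SIBLING genes (small integrin-binding ligand, N-linked glycoproteins) Dspp, Dmp1, Ibsp, Mepe and Spp1, and the osteocalcin genes Bglap and Bglap2. They were chosen by gene symbol, and all 7 were found among the 23718 genes listed. Their RNA levels were measured by sequencing in laser-captured regions of the mouse incisor, a tooth that grows throughout life, in 3 mesenchymal stem cell (MSC) samples and 3 transit amplifying cell (TAC) samples. TACs are the dividing progeny of the stem cells, and the comparison asks how these regions differ. MSC samples came from mice labelled Gli1-CreER;tdT and TAC samples from mice labelled Axin2-CreER;tdT. The methods write the drivers as CreERT2 and the reporter as a tdTomato allele of Rosa26. In both, the driver named switches on a red fluorescent reporter in the cells that express it, and all mice were given tamoxifen before collection. Mice of both groups were 1 month old and labelled C57BL/6, although the study's methods give a mixed background. Genotype and captured region cannot be told apart, since each driver was used for 1 region. A captured region may also hold cells that do not express the driver, and no label ties a sample to an animal or litter. The methods speak of 3 mice per group and of paired samples, but not of which mouse gave which sample, so p-values here measure the spread between these samples, part of which may be technical.

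SIBLING proteins are secreted, acidic and heavily phosphorylated, and bind calcium, collagen and cell surface integrins in mineralizing matrix. Dentin sialophosphoprotein (DSPP) is the hallmark product of odontoblasts, the cells that lay down dentin at the pulp margin, and is cut into dentin sialoprotein and dentin phosphoprotein. DMP1 and MEPE are typical of odontoblasts and osteocytes, bone sialoprotein (encoded by Ibsp) and osteopontin (encoded by Spp1) of bone and cementum cells. Osteocalcin is a small protein that carries gamma-carboxyglutamate residues and is made by osteoblasts and odontoblasts.

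The 5 SIBLING genes lie side by side on the plus strand of chromosome 5 of mouse build mm10. Dspp spans chr5:104170712-104180127, Dmp1 spans chr5:104202613-104214102, Ibsp spans chr5:104299171-104311469, Mepe spans chr5:104325329-104338611 and Spp1 spans chr5:104435118-104441050. The nearest listed genes on the outer sides were Sparcl1 before Dspp and Pkd2 after Spp1. The osteocalcin genes lie on the minus strand of chromosome 3, Bglap2 at chr3:88377736-88378699 and Bglap at chr3:88383501-88384464. The third copy Bglap3 lies on the far side of Bglap2, and Pmf1 on the far side of Bglap.

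The coding sequences of Bglap and Bglap2, without the stop codon, are shown because how their reads can be told apart bears on every osteocalcin value below. Capitals mark the 4 bases at which they differ.
Bglap: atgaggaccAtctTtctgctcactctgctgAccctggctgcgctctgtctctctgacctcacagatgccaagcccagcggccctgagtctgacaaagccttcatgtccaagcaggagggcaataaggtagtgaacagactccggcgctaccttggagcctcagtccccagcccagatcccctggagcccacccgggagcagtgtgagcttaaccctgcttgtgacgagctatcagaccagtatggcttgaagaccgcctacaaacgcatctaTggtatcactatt
Bglap2: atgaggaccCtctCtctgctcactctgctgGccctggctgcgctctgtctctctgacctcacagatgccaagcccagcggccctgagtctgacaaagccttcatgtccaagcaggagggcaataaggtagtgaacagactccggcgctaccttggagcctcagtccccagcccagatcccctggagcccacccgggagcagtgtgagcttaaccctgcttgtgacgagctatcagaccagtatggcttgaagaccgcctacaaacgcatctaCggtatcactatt
Both were 285 bases long and 98.6% identical, with the substitutions A10C, T14C, A31G and T273C, the Bglap base first and positions counted from the A of the start codon. The longest run without a difference was 241 bases, against a read length of 75. Of all windows of 75 bases, 66.1% in Bglap and 73.3% in Bglap2 occurred in another osteocalcin transcript. The values of the osteocalcin genes are therefore uncertain as separate genes. In Spp1, 7.47% of windows were shared with the overlapping gene Gm42793, and in Dspp, Dmp1, Ibsp and Mepe none were shared with another annotated gene.

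A stretch of the last of the 4 coding exons of Dspp, chr5:104177558-104177707 on the plus strand of mm10, is shown because much of the coding sequence is a short repeat. This gene also gave the highest values of the set before division by length. Capitals mark copies of the 9-base unit GTGACAGCA. This unit codes for the serine- and aspartate-rich repeats of dentin phosphoprotein, whose serines are phosphorylated.
Dspp: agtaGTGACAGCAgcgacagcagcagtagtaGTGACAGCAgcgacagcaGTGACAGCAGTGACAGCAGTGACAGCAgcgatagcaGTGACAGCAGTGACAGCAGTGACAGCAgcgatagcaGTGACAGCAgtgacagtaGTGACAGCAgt
The unit occurred 53 times in the coding sequence of 2835 bases and 10 times in this window of 150 bases. No window of 75 bases occurred more than once within the Dspp transcript.

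Upstream sequences from RefSeq (GRCm38.p6) were matched for 5 of the 7 genes, and those of Bglap and Spp1 are shown because the group differences of these genes had opposite signs in both library sets described below. Each run is the 250 bases before the start. Bglap is at chr3:88384467-88384716 on the minus strand and Spp1 at chr5:104434861-104435110 on the plus strand. Capitals mark ACCACA, the core bound by RUNX factors, searched on both strands.
Bglap: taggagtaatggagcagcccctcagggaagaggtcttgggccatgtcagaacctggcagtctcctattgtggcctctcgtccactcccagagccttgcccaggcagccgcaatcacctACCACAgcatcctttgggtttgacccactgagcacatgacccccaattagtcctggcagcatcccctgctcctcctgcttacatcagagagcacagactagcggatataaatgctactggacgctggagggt
Spp1: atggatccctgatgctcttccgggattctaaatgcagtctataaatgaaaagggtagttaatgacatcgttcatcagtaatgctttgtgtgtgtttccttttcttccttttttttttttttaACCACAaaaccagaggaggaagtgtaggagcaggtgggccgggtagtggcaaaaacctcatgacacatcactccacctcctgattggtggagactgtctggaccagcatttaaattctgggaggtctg
The core began 132 bases before the start in Bglap and 128 bases before it in Spp1. It was also present upstream of Dmp1 and Mepe and not in the window of Ibsp, so 4 of 5 matched genes held it, against 14.0% of 32851 mouse promoters of that length. A match is a description of letters and does not show binding.

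Libraries numbered 3 stood apart from those numbered 1 and 2, in MSCs and in TACs alike, and these are called the 2 library sets below. The 4 libraries numbered 1 and 2 had 20203159 to 25567244 estimated reads, and 6.38% to 7.88% of listed genes were without a read. MSC replicate 3 had 59793645 reads and TAC replicate 3 had 108156380, yet 42.6% and 27.8% of genes had no read in them. Depth, the share of unread genes and any other difference between the sets cannot be told apart. Of the label genes, Gli1 was at 256, 245 and 422 in MSCs and 153, 141 and 396 in TACs, and Axin2 was at 58.3, 48.0 and 12.01 against 56.8, 63.9 and 34.1. Both overlapped between the groups, though Gli1 was higher in the MSC sample of each same-numbered pair (adjusted p 0.203 by limma with the replicate number as a block). The proliferation marker Mki67 was at 137, 130 and 41.5 in MSCs and 593, 630 and 122 in TACs. These ranges overlapped, but in each same-numbered pair TACs were higher. Its adjusted p by limma was 0.361, and 0.0442 with the replicate number as a block, where it passed. With replicates 1 and 2 averaged as 1 sample no gene with a higher level in TACs passed. Values are normalized read counts, a read number scaled per library, and are given below for replicates 1, 2 and 3 in that order.

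Dspp had the highest normalized read count of the set in every library, before division by length. Its normalized read count was 4909, 4763 and 476 in MSCs and 4410, 4370 and 3095 in TACs. MSC replicate 3 alone was low, and the other 5 libraries lay between 3095 and 4909, with both other MSC samples above every TAC sample. The mean was 3383 ± 2518 (SD, n = 3) in MSCs and 3959 ± 748 (SD, n = 3) in TACs. The log2 difference, TAC minus MSC, was 0.81 with a standard error (SE) of 1.15, and the adjusted p from limma, a linear model fitted to all genes, was 0.856. Without MSC replicate 3 the difference was -0.31. As a share of all estimated reads, Dspp took 0.840%, 0.814% and 0.120% in MSCs and 0.788%, 0.770% and 0.755% in TACs, so on this scale TAC replicate 3 lay beside TAC replicates 1 and 2. Fewer expressing cells and less RNA per cell cannot be told apart in such samples, for this gene or any other.

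Genes that mark the enamel-forming epithelium, which lies beside the mesenchyme in the incisor, were also read in these libraries. The 10 genes of that list summed to 3712, 3653 and 329 in MSCs and to 3320, 3387 and 2470 in TACs. Amelx, which encodes the main enamel matrix protein amelogenin, was at 2503, 2492 and 80.6 in MSCs and 2102, 2209 and 826 in TACs. The sum, which is mostly that of the enamel matrix genes Amelx, Ambn and Enam, was low in MSC replicate 3. There 7 of the 10 genes were below both other MSC samples, 3 of them without a read, while Krt14, Krt5 and Odam were above both. Of all listed genes, 62.2% were below both there and 42.6% had no read. All 10 had reads in the other 5 libraries. In TAC replicate 3, where the osteocalcin genes described below were high, 7 of the 10 genes were above both other TAC samples, against 31.5% of all listed genes. Odam, a gene of maturing ameloblasts, was at 0.657, 0.791 and 248 in TACs, Klk4 at 0.701, 0.0959 and 29.8, and Ambn at 819, 799 and 1157. The sum was thus not matched by its genes in that library either. The ratio of Dspp to Amelx was 1.91 to 2.10 in the 4 libraries of replicates 1 and 2, 5.90 in MSC replicate 3 and 3.75 in TAC replicate 3. The part of epithelial tissue in the Dspp values was not tested.

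Dmp1 and Ibsp were read in 5 of 6 libraries, and in MSC replicate 3 neither had a read. Dmp1, whose product nucleates mineral and is needed for dentin and bone maturation, was at 3.20 and 5.94 in MSC replicates 1 and 2, and at 8.43, 8.82 and 0.902 in TACs. Its log2 difference was 0.86 (SE 0.97), with an adjusted p of 0.794 by limma. It was 0.055 without MSC replicate 3 and 1.64 without TAC replicate 3. The 237 reads of TAC replicate 3 were at least 45.0-fold above the floor of 3 reads in MSC replicate 3 after scaling, and the mean of MSC replicates 1 and 2 was at least 227-fold above that floor. The group order of Dmp1 was thus the same in both sets, TACs higher, while both members of replicate 3 were below their own group.

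Ibsp was at 30.7 and 32.9 in MSC replicates 1 and 2 and at 24.2, 22.6 and 27.0 in TACs. Apart from MSC replicate 3, the MSC samples were above every TAC sample. Its log2 difference over all 6 samples was 1.32 (SE 1.28), with an adjusted p of 0.748 by limma. The TAC replicate 3 value was at least 1354-fold above the floor of MSC replicate 3, and the mean of MSC replicates 1 and 2 at least 1591-fold above it. The positive difference over all samples rested on MSC replicate 3, since without that library it was -0.36.

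Mepe, whose product carries a mineral-binding peptide released by proteases, was near the limit of detection. It had 26 and 60 estimated reads in TAC replicates 1 and 2, 1 read in MSC replicate 2 and no read in the remaining 3 libraries, the deepest one, TAC replicate 3, among them. Its mean over the samples was below the minimum of 1, so it was not tested.

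Spp1, which encodes the integrin ligand and mineralization inhibitor osteopontin, was the one tested gene of the set with a negative group difference. It was at 12.8, 15.01 and 6.99 in MSCs and 8.80, 8.85 and 4.85 in TACs. Each MSC sample was above its same-numbered TAC sample, but MSC replicate 3 was below TAC replicates 1 and 2, so the groups overlapped. The log2 difference was -0.55 (SE 0.47), with an adjusted p of 0.706 by limma. Osteopontin is also made by osteoclasts and macrophages. The 8 macrophage genes summed to 109, 88.3 and 203 in MSCs and 50.4, 50.2 and 104 in TACs. The osteoclast list, of which 5 of 8 genes were listed, summed to 34.96, 36.1 and 79.4 in MSCs and 18.9, 21.1 and 24.1 in TACs. Both sums were higher in MSCs within each replicate number, and both were highest in MSC replicate 3, where Spp1 was lower than in the other MSC samples. Not every gene followed its sum, since the osteoclast genes Acp5 and Ctsk were higher in TAC replicate 2 than in MSC replicate 2, and the macrophage genes C1qa, C1qb and Adgre1 in TAC replicate 3 than in MSC replicate 3. The part of these cells in the Spp1 values was not tested.

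**Figure D1:**
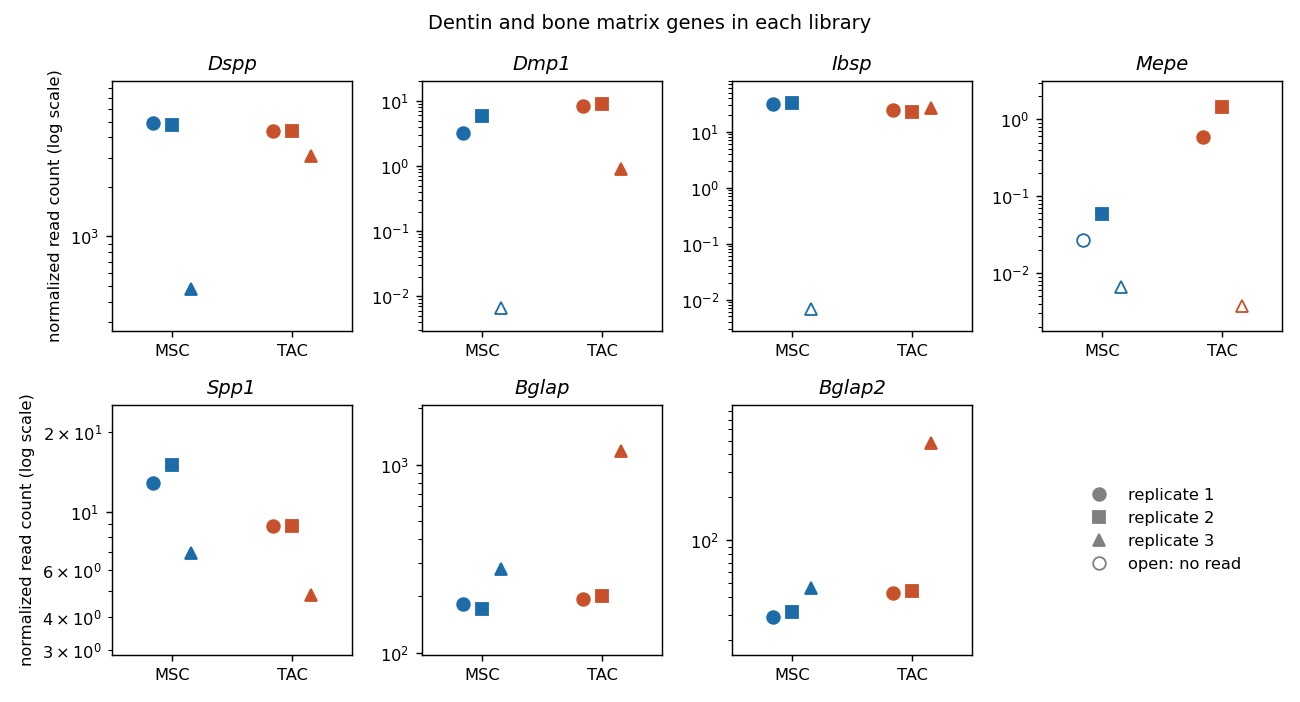
Normalized read count (log axis) of the 7 genes in each of 3 MSC and 3 TAC libraries, one panel per gene, with the replicate number given by the symbol and open symbols for libraries without a read. Dspp, Dmp1 and Ibsp are lowest in MSC replicate 3, and Bglap and Bglap2 are highest in TAC replicate 3.

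The osteocalcin genes stood high in a single library. Bglap was at 181, 172 and 279 in MSCs and 192, 201 and 1180 in TACs. Bglap2 was at 29.1, 31.5 and 46.1 in MSCs and 42.9, 43.9 and 484 in TACs. In both genes TAC replicate 3 was far above the other 5 libraries, MSC replicate 3 was above MSC replicates 1 and 2, and the groups overlapped. The log2 difference was 0.80 (SE 0.71) for Bglap, with an adjusted p of 0.720 by limma, and 1.46 (SE 0.89) for Bglap2, with an adjusted p of 0.587. Without TAC replicate 3 the difference of Bglap was -0.064 and that of Bglap2 was 0.31.

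The third copy, Bglap3, was at 4.69, 8.13 and 4.11 in MSCs and 4.68, 4.497 and 42.9 in TACs, so it too was highest in TAC replicate 3. Bglap2 was 0.161, 0.184 and 0.165 of the Bglap value in MSCs and 0.224, 0.218 and 0.410 in TACs. The ratio in all 3 TAC libraries was thus above that of all 3 MSC libraries. With 3 samples against 3, an exact permutation test cannot give a two-sided p under 0.10, and none was run on this ratio, which was chosen after its values were seen. Estimated reads of Bglap, Bglap2 and Bglap3 were not whole numbers wherever this could be resolved, in 2, 5 and 6 libraries. Those of Dmp1, Mepe and Spp1 were whole in all 6, within 0.02 reads. Those of Ibsp were whole in 5 and just beyond that limit in TAC replicate 3. How the authors divided reads between the copies was not stated, and its part in the ratio was not tested.

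**Figure D2:**
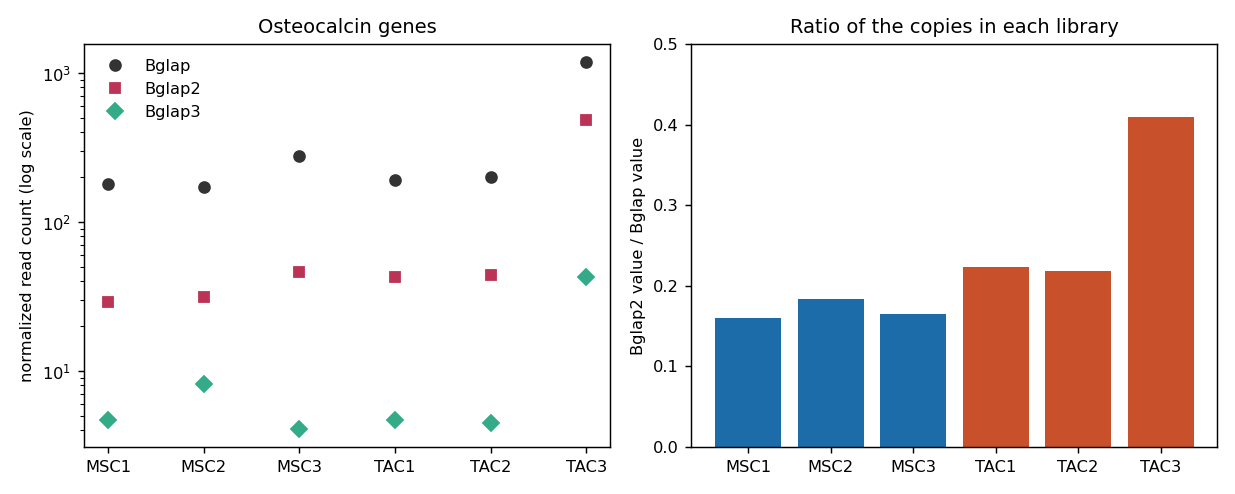
Left, normalized read count (log axis) of Bglap, Bglap2 and Bglap3 in each library. Right, the ratio of the Bglap2 to the Bglap value in each library, which is 0.161 to 0.184 in MSCs and 0.218 to 0.410 in TACs.

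Over all 6 samples none of the 6 genes tested differed between TACs and MSCs. By limma, 0 of 6 passed an adjusted p of 0.05, against 0.422% of all 15391 genes tested, and 0 of 6 had an unadjusted p under 0.05, against 11.9%. The values of the groups overlapped in all 6, whereas they did not overlap in 24.5% of all genes. With the replicate number as a block, also 0 of 6 passed, against 1.49%, and 0 of 6 had an unadjusted p under 0.05, against 20.4%. The median log2 difference of the 6 genes was 0.83, and that of all genes was 0.03. The median of the 6 rested on MSC replicate 3, since without that library it was -0.13, against -0.14 for all genes. These counts do not show equal levels, since standard errors of 0.47 to 1.28 leave room for large differences in either direction.

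The group differences were also taken within each of the 2 library sets. In replicates 1 and 2 the log2 difference was -0.14 for Dspp, 0.83 for Dmp1, -0.43 for Ibsp, -0.60 for Spp1, 0.16 for Bglap and 0.51 for Bglap2. In replicate 3 it was 2.70, 0.92, 4.80, -0.45, 2.08 and 3.36 in the same order. Dmp1, Bglap and Bglap2 were thus higher in TACs and Spp1 higher in MSCs in both sets, while Dspp and Ibsp turned direction. Fitted to replicates 1 and 2 alone, limma called all 6 genes, with adjusted p from 2.2e-06 for Dspp to 0.0192 for Bglap, but it also called 47.4% of all 15680 genes tested. That fit has 2 libraries a group, and rests on the small spread between replicates 1 and 2. The Dspp difference it calls is a TAC level of 0.908 times the MSC level.

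The interaction of group and library set, which tests the difference between these differences, had an adjusted p under 0.05 by limma for 4 of 6 genes, against 57.2% of all genes. The difference in replicate 3 exceeded that in replicates 1 and 2 by 2.84 for Dspp, 5.23 for Ibsp, 1.92 for Bglap and 2.86 for Bglap2, on the log2 scale. It was 0.08 for Dmp1 (adjusted p 0.896) and 0.15 for Spp1 (adjusted p 0.693), which did not pass. The value of Dmp1, which has no read in MSC replicate 3, depends on the pseudocount: it was 2.27 with a pseudocount of 0.1 (adjusted p 0.0152 by limma), which passed, and -0.29 with a pseudocount of 5. This test has 1 library per group in replicate 3, and its error comes from replicates 1 and 2 alone.

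**Figure D3:**
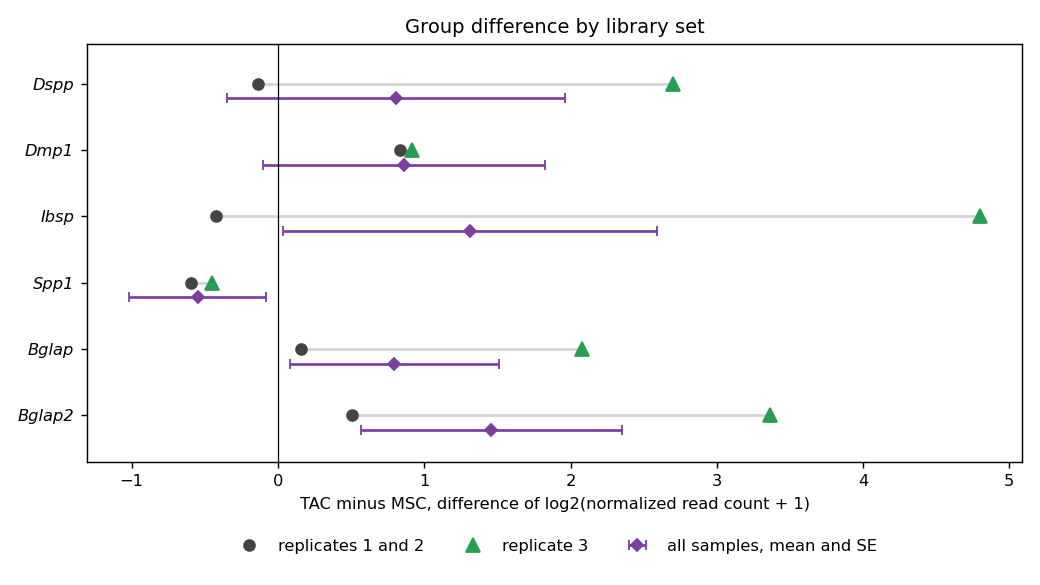
Difference of log2(normalized read count + 1), TAC minus MSC, for the 6 genes tested: circles for replicates 1 and 2, triangles for replicate 3 and diamonds with bars for the estimate over all samples and its SE. On this scale the sets lie close together for Dmp1 and Spp1, and lie apart by 1.92 to 5.23 for Dspp, Ibsp, Bglap and Bglap2. The distance for Dmp1, which has no read in MSC replicate 3, depends on the pseudocount.

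Between the library sets themselves, 5 of the 6 genes passed the adjusted threshold by limma with the group as a term, against 43.5% of all genes. Replicate 3 was lower by a log2 difference of -1.92 for Dspp (adjusted p 0.0464), -2.38 for Dmp1 (0.00475) and -0.82 for Spp1 (0.0389). It was higher by 1.62 for Bglap (0.0247) and 2.02 for Bglap2 (0.0426). For Ibsp the value was -2.41, with an adjusted p of 0.131. Of all genes that passed, 4570 were lower and 2125 higher in replicate 3, and the median difference of all genes tested was -0.35. Among the members, the 3 SIBLING genes that passed were lower and both osteocalcin genes higher in replicate 3. The sizes rested on 1 library for 3 of these genes: without MSC replicate 3 the difference was -0.50 for Dspp, 2.58 for Bglap and 3.45 for Bglap2, and without TAC replicate 3 it was -3.34, 0.66 and 0.59 in the same order. The number that passed was not stable: leaving out MSC replicate 2, TAC replicate 1 or TAC replicate 2 left 1 of 6, and leaving out MSC replicate 1 left 2. With libraries brought to the same total of estimated reads, an alternative chosen after seeing the data, Dmp1, Bglap and Bglap2 passed. Dspp was then at -1.42 (adjusted p 0.1002) and Spp1 at -0.37 (adjusted p 0.256). Under planned scalings, Dspp was at -0.91 with quantile normalization (adjusted p 0.307 by limma) and at -1.77 with median-ratio scaling (adjusted p 0.0516 by limma).

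Levels can be compared between genes only per length, since the deposited values were not divided by it. Per kilobase (kb) of merged exon, the normalized read count of Dspp was 763 ± 568 in MSCs and 893 ± 169 in TACs (SD, n = 3 each). Bglap followed with 341 ± 96.2 and 849 ± 919, and Bglap2 with 75.5 ± 19.5 and 404 ± 540. The levels per kb were far lower for Ibsp, at 10.3 ± 8.89 and 11.9 ± 1.09, and for Spp1, at 7.04 ± 2.51 and 4.55 ± 1.39. Dmp1 was at 1.10 ± 1.07 and 2.19 ± 1.62 and Mepe at 0.0181 ± 0.0154 and 0.408 ± 0.436. Between neighbours in this order, the ranges of 1 SD around the mean were apart in MSCs for Bglap and Bglap2, Bglap2 and Ibsp, and Spp1 and Dmp1, and in TACs for Ibsp and Spp1. They overlapped for the other 3 of 6 neighbouring pairs in MSCs and 5 of 6 in TACs. Within single libraries the order of Bglap over Bglap2, Bglap2 over Ibsp and Spp1 over Dmp1 was nevertheless the same in all 6. That of Ibsp over Spp1 and of Dmp1 over Mepe was the same in the 5 libraries other than MSC replicate 3, in which Ibsp, Dmp1 and Mepe had no read. In replicates 1 and 2 of both groups Dspp was above Bglap per kb, at 986 to 1108 against 278 to 326. In replicate 3 the order was the other way, with Bglap at 452 and Dspp at 107 in MSCs, and Bglap at 1910 and Dspp at 699 in TACs. The level of Dspp per kb exceeded that of Dmp1, another SIBLING gene typical of odontoblasts, by 309- to 957-fold in replicates 1 and 2 and by 2140-fold in TAC replicate 3.

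**Figure D4:**
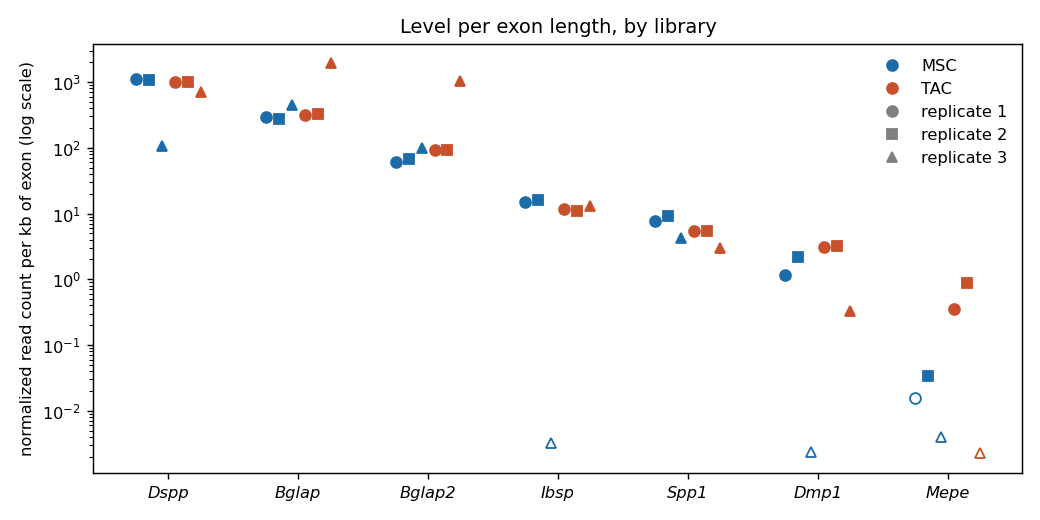
Normalized read count per kb of merged exon (log axis) of the 7 genes in each library, with genes ordered by their mean over the 6 libraries, groups by color, replicates by symbol and open symbols for libraries without a read. Dspp leads in replicates 1 and 2, and Bglap leads in replicate 3 of both groups.

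The genes that process, bind or regulate these proteins were described through a list of 40, of which 38 were listed and 37 tested. By limma 0 of 37 passed the adjusted threshold over all 6 samples. Of these, 9 had an unadjusted p under 0.05, 6 higher in MSCs and 3 higher in TACs, against 11.9% of all genes. The median log2 difference of the list was 0.19, and that of all genes was 0.03.

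The widest difference among them was in Mgp, which encodes matrix Gla protein, a gamma-carboxylated relative of osteocalcin that inhibits calcification. It was at 55.7, 51.3 and 277 in MSCs and 2.63, 2.57 and 6.94 in TACs, with every MSC sample far above every TAC sample. Its log2 difference was -4.32 (SE 0.70), with an adjusted p of 0.0709 by limma and of 0.0327 with the replicate number as a block, where it was the one partner gene to pass. With replicates 1 and 2 averaged as 1 sample, 0 of 37 passed. Sparcl1, the secreted SPARC-like gene next to Dspp on the chromosome, was at 79.9, 85.6 and 171 in MSCs and 24.3, 23.8 and 18.7 in TACs. Its log2 difference was -2.20 (SE 0.36), with an adjusted p of 0.0709. The 4 endothelium genes summed to 115, 116 and 189 in MSCs and 77.4, 77.4 and 55.3 in TACs, although 1 of them, Kdr, was higher in TACs in replicates 1 and 2. The 8 dental follicle and periodontium genes summed to 416, 417 and 747 in MSCs and 258, 262 and 499 in TACs, most of it Bgn. Postn and Pth1r were nevertheless higher in TAC replicate 2 than in MSC replicate 2. Tnmd, below 1 throughout, was higher in TACs in each same-numbered pair. The sums of both lists were higher in MSCs in each same-numbered pair, as Mgp and Sparcl1 were, and their part in these differences was not tested. The neighbours Sparcl1 and Dspp did not share a pattern, since Dspp was lowest in MSC replicate 3 where Sparcl1 was highest.

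Tgm2, a transglutaminase that can crosslink osteopontin, was at 20.6, 22.3 and 30.0 in MSCs and 3.53, 2.40 and 0.193 in TACs. Mmp9, a secreted protease abundant in osteoclasts, was at 16.7, 18.1 and 21.3 in MSCs and 4.99, 4.32 and 1.05 in TACs. The groups of both genes did not overlap, and their log2 differences were -3.25 (SE 0.60) and -2.28 (SE 0.53). Of the integrin chains that can serve as osteopontin and bone sialoprotein receptors, Itgb3 was at -2.20 (SE 0.71) and Itgb5 at -1.36 (SE 0.31). The adjusted p of these 4 genes was 0.0932 to 0.285 by limma, so none passed, and Itgav, their common alpha chain, was at 0.60 and overlapped between groups.

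On the TAC side stood Pcolce, which enhances the cutting of procollagen by BMP1, at 57.6, 61.7 and 39.6 in MSCs and 108, 109 and 172 in TACs. The homeobox gene Msx2 was at 43.6, 44.3 and 26.9 against 109, 107 and 104, and Dlx5 at 86.4, 86.6 and 109 against 162, 159 and 196. Both encode regulators that act on osteocalcin and other matrix promoters. None of the 3 overlapped between groups, with log2 differences of 1.27 (SE 0.32), 1.49 (SE 0.29) and 0.87 (SE 0.26) and adjusted p of 0.106 to 0.254 by limma. Runx2, the factor that binds the core shown above, was at 168, 182 and 49.7 in MSCs and 56.9, 63.6 and 54.4 in TACs. Its 2 highest values were thus in MSC replicates 1 and 2, where Bglap was lowest and Spp1 highest. Its adjusted p by limma was 0.510, and its part in the values of either gene was not tested.

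Of the 38 partner genes listed, 19 were below both other MSC samples in MSC replicate 3, where Dspp was low, and 17 were above both, against 62.2% and 26.0% of all listed genes. Among the 11 kinases and proteases, 7 were below and 3, Bmp1, Mmp2 and Mmp9, were above. Fam20c, the kinase that phosphorylates SIBLING proteins, was at 17.5, 22.6 and 1.06 in MSCs and 19.7, 19.3 and 21.3 in TACs. Phex, a protease linked to phosphate balance that cuts peptides of this family, was at 79.7, 85.7 and 8.07 against 74.2, 74.1 and 128. Col1a1, the main collagen chain of dentin and bone, was at 9568, 9609 and 1554 against 11167, 11125 and 8030. Fam20c, Phex and Col1a1 were lowest in MSC replicate 3 and overlapped between groups, with adjusted p of 0.657 to 0.879 by limma.

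**Figure D5:**
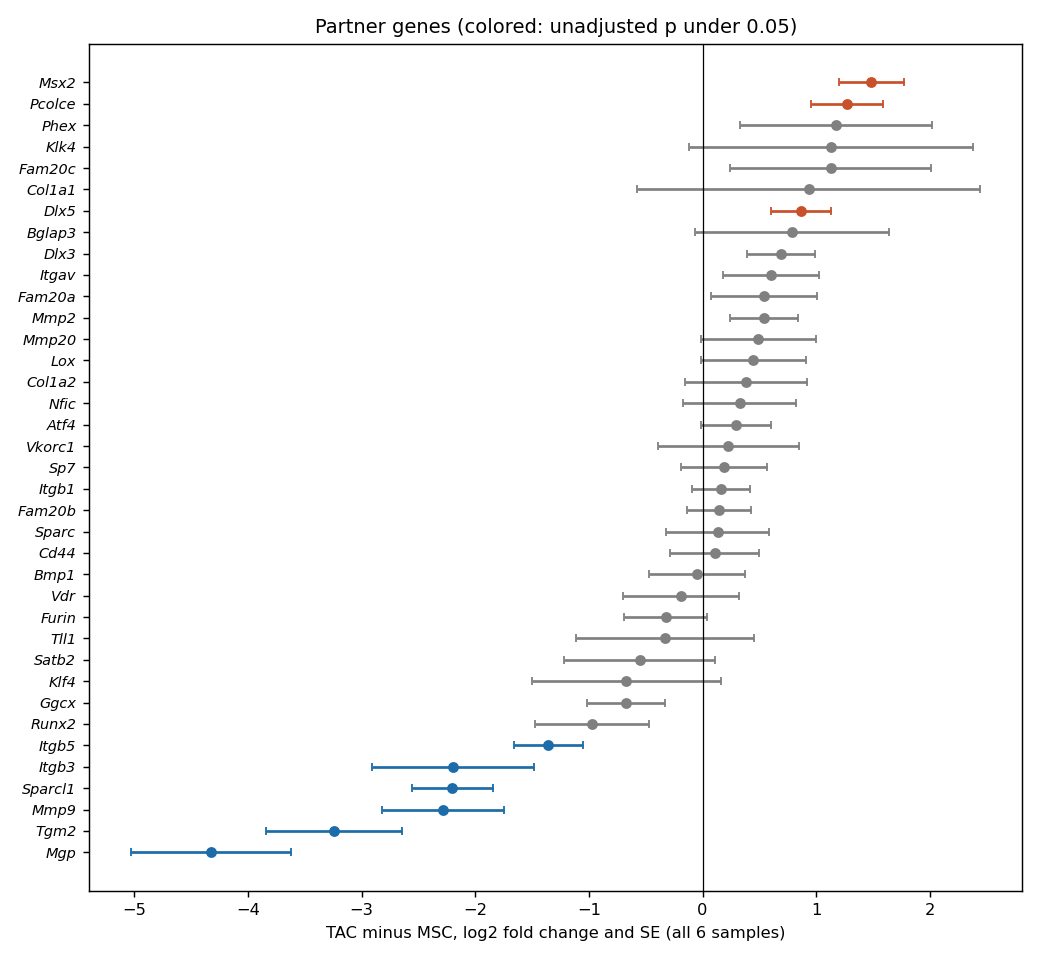
Log2 fold change, TAC minus MSC, over all 6 samples with its SE for the 37 partner genes tested, in order of size. Colored points have an unadjusted p under 0.05, with 6 on the MSC side led by Mgp at -4.32 and 3 on the TAC side led by Msx2 at 1.49, and none passed the adjusted threshold.

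Markers of the cells known to make these proteins were checked by lists. The odontoblast list of 9 genes summed to 10112, 10167 and 2000 in MSCs and 12144, 12125 and 8950 in TACs, most of it Col1a1, and none of its genes was without a read in any library. None of its 9 genes passed the adjusted threshold, against 0.422% of all genes, and 2 had an unadjusted p under 0.05, against 11.9%, both higher in TACs. One of these, Smpd3, which encodes a sphingomyelinase needed for mineralization, was at 55.2, 63.9 and 35.5 in MSCs and 383, 385 and 169 in TACs. Its adjusted p by limma was 0.0764, and 0.0295 with the replicate block, where it passed, but it did not pass with replicates 1 and 2 averaged. The groups did not overlap in 3 of the 9 genes with TACs higher and in Cox4i2 with MSCs higher, against 24.5% of all genes. Cox4i2 was at 19.1, 19.9 and 21.3 in MSCs and 11.9, 15.1 and 17.5 in TACs. Dmp1 and Mepe are also osteocyte genes. Of the osteocyte markers, Sost and Fgf23 were low in every library, at no more than 0.527 and 0.372. Sost was at 0.027, 0.29 and 0.0067 in MSCs and 0.504, 0.527 and 0.318 in TACs, without overlap, and was too low to be tested. Pdpn was at 5.07 to 9.18 in the 5 libraries other than MSC replicate 3. Ifitm5, an osteoblast gene, was at 1.20 to 2.09 in replicates 1 and 2. Of the 10 osteoblast and osteocyte genes, 5 had no read in MSC replicate 3 and 2 had none in TAC replicate 3, beside 42.6% and 27.8% of all genes.

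The genes most like each member over the 6 samples were ranked among 7810 genes by the Pearson correlation of log2 values. These correlations are descriptions over 6 libraries that share depth and library set. For Dspp they were Srek1, Sertad2 and Cep170b, all with r of 1.00, and for Ibsp they were Phka2, Pdzd4 and Nek6, with r of 0.998 to 0.999. For Bglap they were Chrac1, Ptms and Msto1, and for Bglap2 they included Msto1 and Wwp2, with r of 0.994 to 0.998. Within the set, r was 0.987 between Bglap and Bglap2, 0.983 between Dspp and Ibsp, 0.823 between Dspp and Dmp1 and -0.837 between Spp1 and Bglap. The genes most like Dspp and Ibsp were low in MSC replicate 3, and those most like the osteocalcin genes were high in TAC replicate 3. Both follow from the way these genes were chosen, over the same libraries.

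The listed genes on either side of the clusters were read as well. Pkd2, after Spp1, was at 159, 149 and 81.9 in MSCs and 103, 111 and 52.8 in TACs. Like Spp1, it was lowest in replicate 3 of each group and higher in the MSC sample of each same-numbered pair. Pmf1, beside Bglap, was at 7.12, 5.39 and 1.78 in MSCs and 14.2, 18.7 and 18.1 in TACs. Paqr6, beyond Bglap3, was at 3.57, 4.08 and 1.95 against 1.74, 1.58 and 0.565. None of these neighbours had its highest value apart from the rest in TAC replicate 3, as the osteocalcin genes did.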

How the data were processed

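Laser-captured RNA of 3 MSC and 3 TAC samples was sequenced by the authors as single reads of 75 bases. The submitters' processing notes name CASAVA 1.8.2, TopHat2 2.0.8, Partek and mm10. The methods state RPKM, but the deposited signal was not divided by gene length: it behaved as reads plus 1 read, scaled per library to a nearly common upper quartile (15.6). Such scaling makes a value relative to the other genes of its library. Estimated reads are the value over the lowest value of its library, minus 1. Because 62.5% to 72.6% of values under 50 reads were whole within 0.02, no count test was used. How reads were counted, and whether strand was used, is not given in the sources used here.

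Groups came from the labels. The test had been planned for RPKM, and working on a log scale suited the values found too. limma 3.58.1 in R 4.3.3, with a variance trend, was fitted to log2(value + 1) of 15391 genes whose mean reached at least 1, two-sided, with Benjamini-Hochberg adjustment over all of them and a threshold of 0.05. Adding 1 understates fold changes of genes with low values. Other models added the replicate block, the library set (replicate 3 against 1 and 2) or its interaction with group. A count of 0 was read as a limit of 3 reads. Such limits cover counting error only. Replicates 1 and 2 of a group differed beyond counting noise and were kept as separate samples. Their mean squared difference was 9.55 to 10.9 times that of counting in MSCs and 7.60 to 9.24 times in TACs, nearly alike at all read numbers. Between replicates 1 and 3 it rose with read number, from 40.8 to 2528 times and from 37.0 to 2851 times. Such an excess does not show that replicates 1 and 2 came from separate animals. Deviations from group means correlated at 0.477, 0.465 and 0.517 for same-numbered samples. These pass the limit for pairing, which comes from the numbers in the labels, but MSC replicate 1 with TAC replicate 2 gave 0.462, so the shared part is that of the library sets.

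Transcripts came from GENCODE M21 and upstream sequences from RefSeq. The deposited ends, lowered by 1, matched GENCODE for all 7 genes. Named were the 7 genes, partner genes with a p under 0.05 or set beside a result, marker lists by sums, the nearest listed neighbours, and, for members with a mean of at least 10, the 3 most correlated genes, of which 1 is not reported here. The members and lists were chosen with earlier results of these data known.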

Additional observations from a re-analysis of the deposited data

Results flagged for a closer look

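The TAC minus MSC difference of 4 of 6 genes passed the interaction test of limma between the library sets, but so did 57.2% of all genes, and the count is near that share. Replicate 3 has 1 library per group, so the errors and p-values below rest on the small spread between replicates 1 and 2 and say nothing of how replicate 3 would vary. Replicate 3 exceeded replicates 1 and 2 by a log2 difference of 2.84 for Dspp, with an SE of 0.0329 and an adjusted p of 2.62e-09. The excess was 5.23 for Ibsp (SE 0.224, adjusted p 5.94e-06), 1.92 for Bglap (SE 0.0750, adjusted p 3.96e-06) and 2.86 for Bglap2 (SE 0.125, adjusted p 6.16e-06). For Dspp and Ibsp the library apart from the others was MSC replicate 3, and for Bglap and Bglap2 it was TAC replicate 3.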

How the results depend on the processing

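The count of 0 of 6 members differing between groups held under all alternatives run other than replicates 1 and 2 only, which called 6. Total-read scaling was chosen after seeing the data. Over all genes the count was 65 by limma, and it was 38 with a pseudocount of 0.1, 114 with quantile normalization, 27 with total-read scaling, 29 without the variance trend, 229 with the replicate block, 10 with replicates 1 and 2 averaged, 7433 with replicates 1 and 2 only and 1814 with the library set as a batch term. Leaving out 1 library gave 0 to 280, with 280 without MSC replicate 3, 20 without TAC replicate 3 and 0 without any other. The median of all genes, 0.03, was -0.14 without MSC replicate 3 and 0.14 without MSC replicate 1, MSC replicate 2 or TAC replicate 3. It was -0.03 without TAC replicate 1 or TAC replicate 2.

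Partner genes, 0 of 37, numbered 1 with a pseudocount of 5, 1 with quantile normalization, 1 with the replicate block, 26 with replicates 1 and 2 only, 11 with the batch term, and 0 to 4 with 1 library left out, the 4 without MSC replicate 3. The block changed no other call on the members or partner genes than that of Mgp. Among the marker genes it added Smpd3, Thy1, Pax9 and Mki67. The 5 members differing between library sets became 3 with a pseudocount of 0.1, 2 with a mean of at least 10, where 4 were tested, 3 with median-ratio scaling, 3 with quantile normalization, 3 with total-read scaling, 3 without the variance trend and 1 to 6 with 1 library left out. The count of 4 for the interaction stayed at 4 or 5, and could not be fitted without either replicate 3.

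The group difference turned direction for Dspp with replicates 1 and 2 only (-0.14) and without MSC replicate 3 (-0.31), for Ibsp likewise (-0.43 and -0.36), and for Bglap without TAC replicate 3 (-0.064). The library set difference of Ibsp was 0.20 without MSC replicate 3. The interaction of Dmp1 was -0.29 with a pseudocount of 5, -0.72 with quantile normalization and -0.28 without MSC replicate 2. With 1 library left out, the group difference was -0.31 to 1.37 for Dspp, 0.055 to 1.64 for Dmp1, -0.36 to 2.18 for Ibsp, -0.85 to -0.30 for Spp1, -0.064 to 1.24 for Bglap and 0.31 to 2.04 for Bglap2, the library set difference of Ibsp was -5.02 to 0.20, and the interaction of Dmp1 was -0.28 to 0.45. The cause was not tested. Mepe, below the mean minimum of 1, was tested without the filter on low values and did not pass. Dmp1 and Ibsp had no read in MSC replicate 3, which had more reads than any library of replicates 1 and 2, and the part of depth was not tested.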
